A study of Mus musculus with 24 samples.

Results

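Gene expression in mouse liver 72 h after cisplatin was compared with that in untreated liver, using 6 of the 24 RNA sequencing libraries of a study of cisplatin and of CBLB502, which activates the flagellin receptor TLR5, in liver and kidney. The cisplatin livers came from C57BL/6 mice that received cisplatin at 20 mg/kg into the peritoneum, with no CBLB502, and gave 3 libraries. The control livers came from mice of the same strain labelled as having no treatment, and also gave 3 libraries. The labels state no vehicle, time or clock time for the controls, and no sex or age for either group. No label ties the libraries of a group to separate animals. A p-value therefore reflects library-to-library spread, part of which could be technical. Total RNA was extracted from whole liver, so every value is a sum over all cells of the piece taken.

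Cisplatin is a platinum compound used against solid tumours that binds the bases of DNA and joins neighbouring bases or opposite strands. The lesions block replication and transcription and activate the kinases ATM and ATR and the transcription factor p53, which switches on genes of cell cycle arrest and apoptosis. The drug also binds thiols such as glutathione and metallothionein, and it is known for damage to the kidney and, at high doses, the liver. The liver makes most plasma proteins, and in injury or inflammation interleukin 6 acting through STAT3 raises the acute phase proteins among them.

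The cisplatin and control libraries differed in what their reads came from before any single gene was considered. Mitochondrial genes held 2.57, 2.94 and 5.70% of the counts in cisplatin livers, against 72.2, 69.3 and 72.0% in control livers. Their mean was 3.74 ± 1.71% (SD, n = 3) in cisplatin livers and 71.2 ± 1.64% (SD, n = 3) in control livers, and the groups did not overlap (two-sided exact permutation p = 0.1, the smallest that 3 against 3 allow). A block of 7 mitochondrial-like genes at GRCm38 chr1:24611535-24616197 held a further 0.871 to 1.62% in cisplatin livers and 19.8 to 20.9% in control livers. With these 37 mitochondrial genes and 7 copies left out, 74.5, 72.3 and 71.9 M counts (M for mega) remained for cisplatin livers, against 2.82, 4.65 and 3.08 M for control livers. The control libraries therefore set the precision: 3 counts in a control library correspond to between 0.645 and 1.06 CPM, the usual depth-scaled count, of nuclear counts, against 0.0403 to 0.0418 CPM in a cisplatin library. These limits cover counting error only. They use nuclear totals before the scaling of the CPM values below, and so cannot be set against those values directly. A transcript annotated as CT010467, which resembles ribosomal RNA, held 0.111 to 0.470% of nuclear counts in cisplatin livers and 3.27 to 5.02% in control livers. The part that the make-up of the control libraries has in the differences below was not tested.

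**Figure D1:**
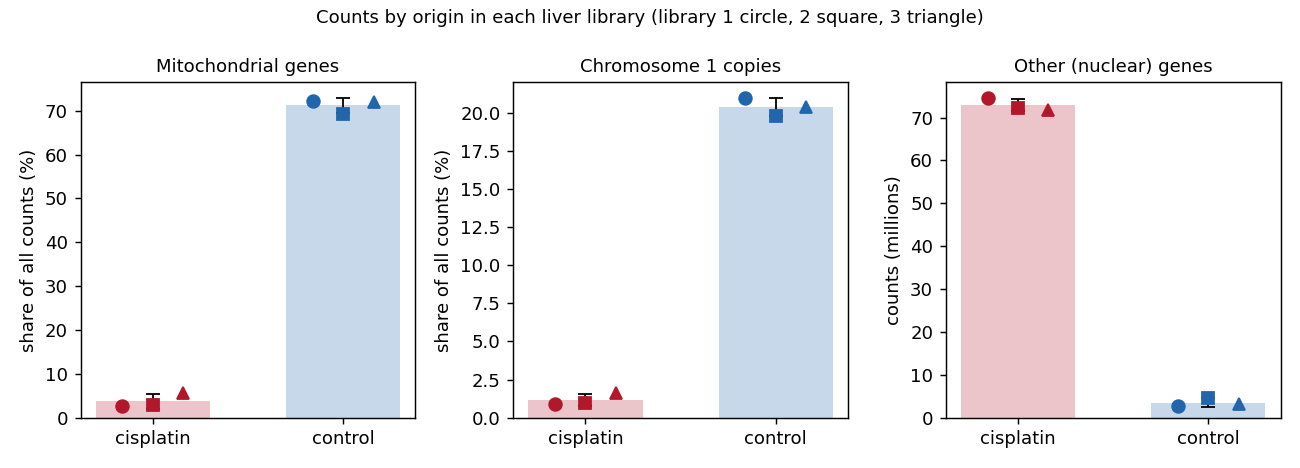
Share of all counts on mitochondrial genes (left, %), on their chromosome 1 copies (middle, %) and number of counts on the other genes (right, M) in 3 cisplatin and 3 control liver libraries. Points are libraries, bars are means and error bars are SD over 3 libraries. Mitochondrial genes held at most 5.70% of the counts in cisplatin livers and at least 69.3% in control livers.

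Both groups carried the defining transcripts of liver. Albumin (Alb), the most abundant plasma protein, had 97049, 115307 and 83477 CPM with cisplatin, against 22410, 38558 and 14395 CPM in controls (log2FC 1.97 ± 0.64, adjusted p = 0.0521). The 12 hepatocyte markers summed to between 136769 and 207495 CPM in cisplatin livers and between 33388 and 62425 CPM in control livers. Here and below CPM is relative to nuclear counts scaled by the trimmed mean of M values (TMM). Values per library stand in the order 1, 2, 3. A log2FC is the log2 fold change of cisplatin over control with its standard error. The third cisplatin library stood apart from the other two: the root mean square log2 difference was 0.766 between cisplatin 1 and 2, but 1.57 between 1 and 3 and 1.42 between 2 and 3. Differences among the control libraries ran from 1.62 to 1.95, and those between a cisplatin and a control library from 1.99 to 2.44. Values without cisplatin 3 are therefore given beside many of the results that it moves. Brackets beside a count give its value in fits that leave out a single library, where that moves it by over 1.5 times. Small counts printed without brackets can also move: for coagulation genes the number lower was 0 with all libraries and 2 without cisplatin 3. A gene that the low count filter dropped from such a fit was not tested there, so no lost call is listed.

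Promoters of 3 genes whose transcripts rose are shown, chosen because they hold matches to the letters searched, with sequences from RefSeq on GRCm38.p6. Whether any factor acts through these letters here was not tested. Each line is the 250 bases before the annotated start, for Cdkn1a the first of its annotated starts. Cdkn1a (chr17:29090729-29090978, plus strand) encodes p21, the inhibitor of cyclin-dependent kinases that p53 induces, and capitals mark matches to the p53 decamer. Mt1 (chr8:94178839-94179088, plus strand) and Mt2 (chr8:94172368-94172617, plus strand) encode metallothioneins, and capitals mark the metal response element, searched as TGCACNC or TGCGCNC on both strands.
Cdkn1a: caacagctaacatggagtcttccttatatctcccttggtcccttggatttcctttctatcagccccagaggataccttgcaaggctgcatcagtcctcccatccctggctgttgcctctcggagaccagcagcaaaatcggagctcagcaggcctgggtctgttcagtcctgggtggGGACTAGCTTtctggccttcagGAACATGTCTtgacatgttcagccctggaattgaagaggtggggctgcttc
Mt1: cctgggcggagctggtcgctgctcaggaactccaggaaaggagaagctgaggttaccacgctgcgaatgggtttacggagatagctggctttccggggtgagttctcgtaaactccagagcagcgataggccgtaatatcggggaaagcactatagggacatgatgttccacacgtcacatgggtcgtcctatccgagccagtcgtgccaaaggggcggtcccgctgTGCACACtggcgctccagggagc
Mt2: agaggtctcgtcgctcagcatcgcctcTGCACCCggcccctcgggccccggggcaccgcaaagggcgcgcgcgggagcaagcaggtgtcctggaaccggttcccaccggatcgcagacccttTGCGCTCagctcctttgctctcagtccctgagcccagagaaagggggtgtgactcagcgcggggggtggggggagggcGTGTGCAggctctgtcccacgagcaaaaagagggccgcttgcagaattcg
Over the full window, from 250 bases before to 50 after the start, the metal response element occurred 3 times in Mt1, 4 times in Mt2 and 2 times in Slc30a1, and at least 1 time in 25.7% of the 32851 mouse promoters in the table. The p53 decamer occurred 2 times at the first of the annotated Cdkn1a starts, with no match at the second. It occurred 1 time each in Mdm2 and Bax, with no match in Btg2, Fas or Phlda3. Of all promoters 8.36% held it. No promoter of Saa1, Saa2 or Lcn2 held the NF-kB letters GGGNNTTTC (4.36% of promoters) or the C/EBP letters TTGCGCAA (0.183%). A match describes letters, and its absence says only that they are not in this window.

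Of 15164 nuclear genes tested with edgeR's quasi-likelihood test and Benjamini-Hochberg adjustment, 4582 had an adjusted p below 0.05, which is 30.2% of genes. Of these, 2747 genes (18.1%) were higher and 1835 genes (12.1%) lower in cisplatin livers. These shares are the background only for counts below that come from this fit. Counts under nuclear totals or with a library left out have other backgrounds, set by the totals of those fits given below. Nuclear totals used the same 15164 genes, and the leave-one-out fits tested 13188 to 17066 genes. Values of the groups did not overlap for 49.3% of genes. The split depended on scaling: scaled by nuclear totals alone, 524 genes were higher and 4611 lower, and the median log2 fold change of all genes was -1.09 in place of 0.07. Under nuclear totals 18 of the 34 lists described below had a median below 0 in place of one above 0, so directions are relative to the TMM scale. With DESeq2's median-of-ratios factors in edgeR, 2274 were higher and 2075 lower. Leaving out any library other than cisplatin 3 lowered the counts. They were 1291 higher and 869 lower without cisplatin 2, 1619 and 1092 without cisplatin 1, 2041 and 1341 without control 1, 1296 and 835 without control 2, and 1304 and 909 without control 3. Without cisplatin 3, 3091 genes were higher and 2776 lower. In every leave-one-out fit, 1603 of the 4582 genes passed. Cisplatin 3 had the smallest change of the 3 cisplatin libraries in 1702 of the 2747 higher genes and 965 of the 1835 lower genes.

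Among genes that passed, reached 5 FPKM in the higher group and had no overlap between groups, several of the largest rises were in transcripts with few or no counts in control livers. Saa1 and Lcn2, acute phase genes described below, were also among the 8 largest. Tff3, a trefoil peptide of mucous epithelia, had 110.2, 38.1 and 0.708 CPM with cisplatin, against 0, 0 and 0 CPM in controls. It was high in the first 2 cisplatin libraries and far lower in the third, and lay at least 258-fold above the level that 3 counts over the control group would give (adjusted p = 0.0384). Nipal1, of the NIPA family of magnesium transporters, was high in all cisplatin libraries with 28.9, 27.7 and 18.7 CPM with cisplatin, against 0, 0 and 0 CPM in controls, at least 130.4-fold higher (adjusted p = 0.00411). Chil3, a chitinase-like protein of activated macrophages, had 26.3, 24.9 and 1.49 CPM with cisplatin and 0, 0 and 0 CPM in controls. Sult1e1, the oestrogen sulfotransferase, had 370.4, 357 and 2.88 CPM with cisplatin, against 0, 0 and 1.45 CPM in controls (log2FC 9.03 ± 2.07, adjusted p = 0.0177), with cisplatin 3 close to the controls. Calls ended for Tff3 without control 1, control 2 or control 3 (adjusted p 0.0897 to 0.104), for Chil3 without control 2 or control 3 (adjusted p 0.0578 to 0.0606) and for Sult1e1 without control 1, control 2 or control 3 (adjusted p 0.0637 to 0.0759).

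By the same rule the largest falls were in immunoglobulin, T cell receptor and globin transcripts. In bulk tissue, fewer cells of a type and less RNA per cell cannot be told apart. Ighg2c, an immunoglobulin heavy chain constant gene, had no count in any cisplatin library, against 27.1, 37.1 and 36.8 CPM in control livers, at least 1647-fold lower. Ighd and the light chain gene Iglc3 also had no count in cisplatin livers, against 27.3, 20.4 and 11.98 CPM and 11.6, 5.18 and 5.37 CPM in control livers. Trac, the constant gene of the T cell receptor alpha chain, had 0 CPM throughout cisplatin livers and 8.53, 3.08 and 5.16 CPM in control livers. Pla2g1b, a secreted phospholipase of the pancreas, was at 0 CPM in cisplatin livers and at 3.72, 5.02 and 6.61 CPM in control livers. Iglc1, a lambda light chain gene, was at 0 CPM in cisplatin livers and at 6.34, 2.11 and 1.86 CPM in control livers. Hba-a1 and Hba-a2, the paired alpha globin genes of red cells, had 0.458, 0.64 and 0 CPM with cisplatin and 382, 80.3 and 339.6 CPM in controls for Hba-a1 (log2FC -9.52 ± 1.45, adjusted p = 0.00618) and 0.39, 0.464 and 0 CPM with cisplatin and 329, 64.9 and 309.9 CPM in controls for Hba-a2 (-9.70 ± 1.41, adjusted p = 0.00583). All these falls passed in every leave-one-out fit. Near-identical gene pairs such as these globins share reads, so their split between copies is uncertain.

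**Figure D2:**
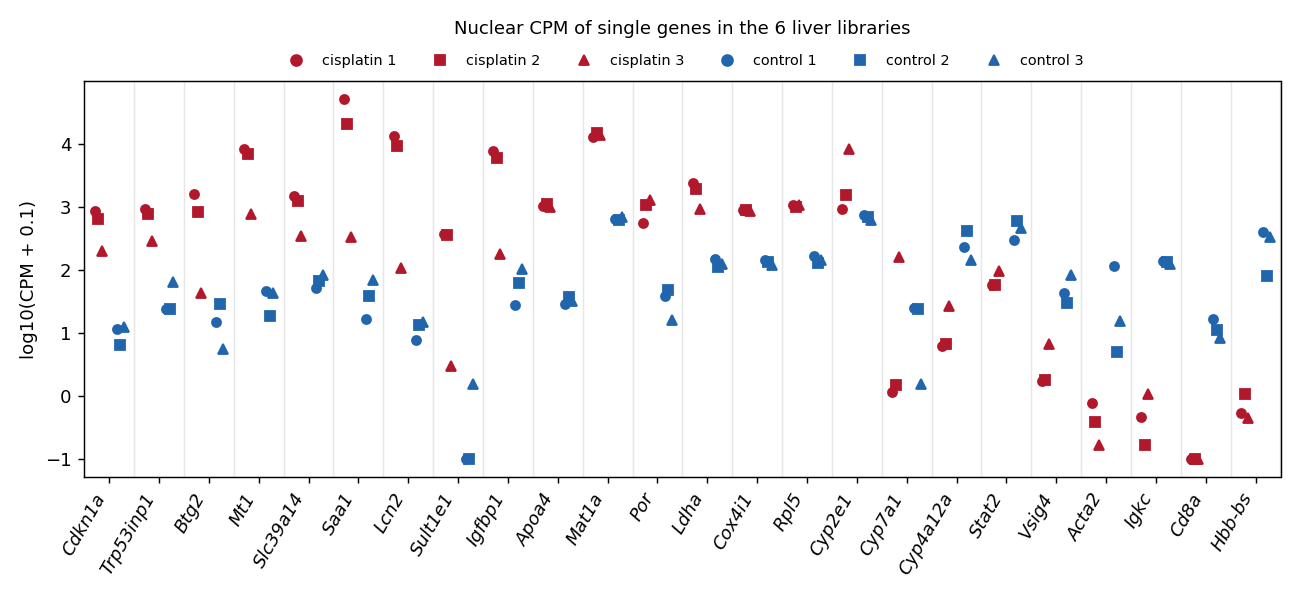
Level of 24 genes in each liver library as log10(CPM + 0.1), cisplatin in red to the left of control in blue, with 1 symbol shape per library number. Saa1 and Sult1e1 were far lower in cisplatin 3 than in cisplatin 1 and 2, Mat1a and Cox4i1 were at like levels in all cisplatin libraries, and Cd8a had no count in any cisplatin library.

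Many genes that p53 switches on were higher in cisplatin livers. Of 35 tested members, 20 were higher (7 to 11 without cisplatin 1 or 2 or control 1, 2 or 3) and 1 lower, with a median log2 fold change of 1.60 against 0.07 for all genes, and of 0.43 under nuclear totals. Cdkn1a had 863, 646 and 203 CPM with cisplatin, against 11.4, 6.32 and 12.4 CPM in controls. All cisplatin libraries lay above all controls, the third the nearest (log2FC 5.83 ± 0.68, adjusted p = 0.00452). Trp53inp1, a p53 partner in apoptosis, had 923, 783 and 289 CPM with cisplatin, against 23.6, 23.97 and 63.4 CPM in controls (log2FC 4.17 ± 0.65, adjusted p = 0.00669). Eda2r, of the TNF receptor family, had 21.8, 17.1 and 5.11 CPM with cisplatin, against 0, 0 and 0 CPM in controls, at least 76.1-fold higher. Btg2, an antiproliferative factor, had 1611, 824 and 43.01 CPM with cisplatin, against 15.1, 28.7 and 5.58 CPM in controls (log2FC 5.65 ± 1.31, adjusted p = 0.0183) and lost its call without control 1, control 2 or control 3 (adjusted p 0.0582 to 0.0719). By role, 8 of 10 apoptosis members, 6 of 10 arrest members, 4 of 10 repair and metabolism members and 2 of 5 feedback members were higher. Phlda3, a brake on AKT signalling, was among the apoptosis members that rose, at 70.9, 40.99 and 45.9 CPM with cisplatin and 10.7, 1.94 and 1.86 CPM in controls (log2FC 3.46 ± 0.71, adjusted p = 0.0126), a call lost without control 2 or control 3 (adjusted p 0.0503 to 0.0512).

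Classical p53 targets with smaller changes are Bax, the pore former of the mitochondrial outer membrane, and Mdm2, the ubiquitin ligase that degrades p53. Bax had 109, 87.7 and 75.8 CPM with cisplatin, against 41.8, 42.9 and 41.7 CPM in controls (log2FC 1.11 ± 0.26, adjusted p = 0.0189), a call that was lost without cisplatin 1, cisplatin 2, control 2 or control 3 (adjusted p 0.0611 to 0.0743), and its log2FC was -0.08 under nuclear totals. Mdm2 had 63.2, 33.7 and 64.4 CPM with cisplatin, against 26.9, 34.3 and 35.5 CPM in controls. The groups overlapped and the difference did not pass (log2FC 0.74 ± 0.32, adjusted p = 0.123), with a log2FC of -0.40 under nuclear totals. The death receptor Fas had 17.5, 14.5 and 33.5 CPM with cisplatin, against 8.53, 11.01 and 3.72 CPM in controls and did not pass (log2FC 1.49 ± 0.51, adjusted p = 0.0607). Ddb2, which recognises ultraviolet lesions and is a p53 target in human cells, was the member that fell, with 2.59, 2.05 and 5.63 CPM with cisplatin, against 18.1, 8.42 and 16.5 CPM in controls (log2FC -2.06 ± 0.55, adjusted p = 0.0281). Its exons overlap those of Acp2 over 24% of their length, and it lost its call without cisplatin 1, cisplatin 2, control 1 or control 3 (adjusted p 0.0695 to 0.0953).

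DNA repair genes showed no common direction on the TMM scale. Of 37 tested, 4 were higher (1 to 2 without cisplatin 1 or 2 or control 1, 2 or 3). A further 5 were lower (1 to 2 without cisplatin 1 or 2 or control 2 or 3). The background shares with all libraries were 18.1% and 12.1%. Under nuclear totals 1 was higher and 17 lower, with a list median of -1.46 against -1.09 for all genes. Brca1, of homologous recombination, had 10.9, 9.21 and 4.79 CPM with cisplatin, against 0.656, 0.972 and 0.826 CPM in controls (log2FC 3.33 ± 0.60, adjusted p = 0.00894). Poli, a polymerase that copies past lesions, had 1.95, 2.38 and 3.3 CPM with cisplatin, against 11.8, 15.9 and 16.3 CPM in controls (log2FC -2.52 ± 0.41, adjusted p = 0.00697). Trp53bp1, which binds chromatin at breaks, had 14.5, 10.1 and 15.7 CPM with cisplatin, against 48.1, 27.4 and 50.2 CPM in controls (log2FC -1.64 ± 0.34, adjusted p = 0.0126), a call lost without control 3 (adjusted p = 0.0546). Among 23 cell cycle genes 1 was higher and 4 lower (1 to 2 without cisplatin 1 or 2 or control 1, 2 or 3). The riser was Pcna, the sliding clamp of replication and repair polymerases and itself a p53 target, with 54.5, 56.8 and 30.8 CPM with cisplatin, against 14.4, 7.29 and 6.61 CPM in controls (log2FC 2.33 ± 0.42, adjusted p = 0.00895). The proliferation antigen Mki67 had 0.435, 0.155 and 0.345 CPM with cisplatin and 6.56, 4.21 and 1.65 CPM in controls and the S and G2 cyclin Ccna2 0.321, 0.486 and 0.622 CPM with cisplatin and 6.12, 2.92 and 8.26 CPM in controls. The log2FC was -3.71 ± 0.88, adjusted p = 0.0201 for Mki67 and -3.58 ± 0.72, adjusted p = 0.012 for Ccna2. These low levels lost their calls without cisplatin 2, control 1 or control 2 (adjusted p 0.0557 to 0.0649) for Mki67 and without control 3 (adjusted p = 0.054) for Ccna2.

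Metallothioneins, small cysteine-rich proteins that bind zinc, copper and platinum, were among the most raised transcripts. Mt1 had 8169, 6959 and 759 CPM with cisplatin, against 45.9, 18.8 and 42.8 CPM in controls, and cisplatin 3 was below the other cisplatin libraries yet above every control (log2FC 7.21 ± 1.06, adjusted p = 0.00598, 148-fold). Mt2 had 4049, 3361 and 479.9 CPM with cisplatin, against 39.8, 3.56 and 16.1 CPM in controls (log2FC 7.06 ± 1.25, adjusted p = 0.00862), but 74% of its exon length is shared with the overlapping gene Gm45774, so its counts are uncertain. The zinc importer Slc39a14 (ZIP14), which interleukin 6 induces, had 1513, 1249 and 341 CPM with cisplatin, against 52.5, 66.4 and 82.4 CPM in controls (log2FC 3.95 ± 0.62, adjusted p = 0.00669). The zinc exporter Slc30a1, a target of the metal-sensing factor MTF1 like the metallothioneins, had 79.4, 96.2 and 47.3 CPM with cisplatin, against 8.53, 5.02 and 4.54 CPM in controls (log2FC 3.63 ± 0.41, adjusted p = 0.0044). Of the 7 zinc and binding members 4 were higher, against 1 of 4 uptake transporters and 1 of 6 efflux pumps, and none of the 17 was lower. The median of the list was 0.86, and -0.22 under nuclear totals.

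Of 30 antioxidant and glutathione genes 12 were higher (5 to 6 without cisplatin 2 or control 2 or 3) and 1 lower. Their median was 0.98, and -0.16 with 2 higher under nuclear totals. Ephx1, microsomal epoxide hydrolase, had 484, 721 and 900.2 CPM with cisplatin, against 50.7, 90.2 and 72.7 CPM in controls (log2FC 3.30 ± 0.42, adjusted p = 0.00459), and the peroxiredoxin Prdx1 had 1139, 1007 and 1460 CPM with cisplatin, against 231, 156 and 193 CPM in controls (log2FC 2.64 ± 0.36, adjusted p = 0.00531). Gpx4, the glutathione peroxidase of membrane lipids, had 367, 418 and 1187 CPM with cisplatin, against 147, 75.3 and 58.9 CPM in controls, highest in cisplatin 3 (log2FC 2.81 ± 0.61, adjusted p = 0.0151), with the call lost without control 2 or control 3 (adjusted p 0.0686 to 0.071). Hmox1, haem oxygenase, did not separate the groups at 62.5, 26.5 and 9.45 CPM with cisplatin and 38.9, 17.3 and 42.8 CPM in controls (log2FC -0.01 ± 0.66, adjusted p = 0.995). Osgin1, an oxidative stress-induced growth inhibitor, was the member that fell, at 36.5, 42.7 and 174 CPM with cisplatin, against 320.4, 1242 and 350.2 CPM in controls (log2FC -2.92 ± 0.83, adjusted p = 0.0356), a call lost without cisplatin 1, cisplatin 2, control 1, control 2 or control 3 (adjusted p 0.0557 to 0.126).

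Acute phase genes had the largest median rise of the lists examined. Of 29 tested, 22 were higher (11 without control 2 or 3) and none lower, and the median log2 fold change was 4.25, with 3.01 under nuclear totals. The per-library medians were 4.89, 4.40 and 1.99, so cisplatin 3 moved the same way by less. Saa1, a serum amyloid A carried on lipoprotein particles, had 51677, 20501 and 338 CPM with cisplatin, against 16.4, 39.03 and 69.6 CPM in controls (log2FC 9.18 ± 1.86, adjusted p = 0.0122). Its close paralog Saa2 had 37864, 15167 and 32.3 CPM with cisplatin, against 12.03, 28.5 and 42.6 CPM in controls (log2FC 9.32 ± 2.22, adjusted p = 0.0201), and cisplatin 3 fell within the control range; reads can be split between the pair. Lcn2, lipocalin 2, which binds bacterial siderophores, had 13400, 9154 and 106 CPM with cisplatin, against 7.66, 13.4 and 15.1 CPM in controls (log2FC 9.29 ± 1.74, adjusted p = 0.00974). Orm1, orosomucoid, had 19218, 14743 and 2410 CPM with cisplatin, against 369, 961 and 585 CPM in controls (log2FC 4.25 ± 0.87, adjusted p = 0.0127), well above the controls also in cisplatin 3. Cd14, the lipopolysaccharide co-receptor, had 1007, 390.2 and 1.49 CPM with cisplatin, against 2.62, 1.78 and 2.48 CPM in controls (log2FC 7.67 ± 1.92, adjusted p = 0.0236), with cisplatin 3 below every control. Calls ended for Saa1 without control 2 or control 3 (adjusted p 0.0522 to 0.0606), for Saa2 without control 1, control 2 or control 3 (adjusted p 0.0768 to 0.087), for Lcn2 without control 2 (adjusted p = 0.0515), for Orm1 without control 3 (adjusted p = 0.0599) and for Cd14 without control 1, control 2 or control 3 (adjusted p 0.083 to 0.0997). Hamp, the iron hormone hepcidin, had 2246, 1480 and 2574 CPM with cisplatin, against 444, 1333 and 463 CPM in controls and did not pass (log2FC 1.49 ± 0.55, adjusted p = 0.0753). Both roles moved alike, with 11 of 15 serum amyloid and transport proteins and 11 of 14 fibrinogens and protease inhibitors higher.

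A further list joins plasma proteins that usually fall in an acute phase with other plasma proteins. With all libraries no tested member passed as lower. Of its 16 genes 9 were higher (4 without control 3), with a median of 1.95, and of 0.81 with 2 higher under nuclear totals. Ahsg, fetuin A, had 30769, 34836 and 10982 CPM with cisplatin, against 2820, 2444 and 2876 CPM in controls (log2FC 3.23 ± 0.61, adjusted p = 0.00999). Transferrin (Trf) had 43163, 37363 and 13819 CPM with cisplatin, against 4826, 3672 and 3677 CPM in controls (log2FC 2.95 ± 0.62, adjusted p = 0.0133), a call lost without control 2 or control 3 (adjusted p 0.0565 to 0.0612). Apoa4, an apolipoprotein that rises in fasting and lipid loading, had 1032, 1106 and 1004 CPM with cisplatin, against 28.9, 36.9 and 31.8 CPM in controls (log2FC 5.01 ± 0.36, adjusted p = 0.00363); 35% of its exon length overlaps Gm47528.

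Some complement and clotting genes were higher. Among 26 complement genes 7 were higher and 3 lower (1 without cisplatin 1 or 2 or control 1, 2 or 3, 5 without cisplatin 3), and 5 of the 7 regulators were among the higher ones. The share lower was near the background of 12.1%. The complement median was 0.75, and -0.27 with 4 higher and 7 lower under nuclear totals. The regulators C4b-binding protein (C4bp) and factor I (Cfi) restrain complement on host surfaces. C4bp had 1434, 1244 and 656 CPM with cisplatin, against 112, 196 and 166 CPM in controls (log2FC 2.81 ± 0.45, adjusted p = 0.00677). Cfi had 974, 985 and 1004 CPM with cisplatin, against 172, 227 and 144 CPM in controls (log2FC 2.45 ± 0.34, adjusted p = 0.00542). Properdin (Cfp), which stabilises the alternative convertase and is made mostly by leukocytes, fell, at 19.8, 18 and 21.02 CPM with cisplatin, against 54.5, 63.5 and 61.6 CPM in controls (log2FC -1.61 ± 0.23, adjusted p = 0.00583). Of 25 coagulation genes 11 were higher, 6 to 7 without cisplatin 2 or control 3, and none lower (median 1.40, and 0.34 under nuclear totals). They included prothrombin (F2) at 4044, 4268 and 3557 CPM with cisplatin, against 671, 994 and 539 CPM in controls (log2FC 2.43 ± 0.42, adjusted p = 0.00795), the fibrinolysis inhibitors Cpb2 at 1502, 1198 and 439 CPM with cisplatin, against 102, 147 and 90.3 CPM in controls (log2FC 3.21 ± 0.54, adjusted p = 0.00762) and Serpinf2, antiplasmin, at 1925, 1625 and 1320 CPM with cisplatin, against 315, 426 and 408 CPM in controls (log2FC 2.08 ± 0.36, adjusted p = 0.00798).

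The receptors and feedback genes of IL-6 and STAT3 signalling were higher in part, with 13 of 20 members higher and 2 lower (median 1.95, and 0.80 under nuclear totals). The count of higher members was 3 to 5 without cisplatin 1 or 2 or control 1, 2 or 3. Lepr, the leptin receptor, had 147, 214 and 1.61 CPM with cisplatin, against 0.875, 0 and 0 CPM in controls (log2FC 8.82 ± 2.02, adjusted p = 0.0177). Il1rn, the interleukin 1 receptor antagonist, had 673, 333 and 2.8 CPM with cisplatin, against 3.72, 0.81 and 4.13 CPM in controls (log2FC 6.88 ± 1.75, adjusted p = 0.0247). Socs3, the feedback inhibitor of STAT3, had 443, 597 and 30.1 CPM with cisplatin, against 20.8, 53.1 and 24.4 CPM in controls (log2FC 3.44 ± 0.99, adjusted p = 0.0368). In each of these 3 genes cisplatin 3 lay near or within the control range. Lepr had no value in the fits without cisplatin 1 or cisplatin 2, so its call was not tested there. Calls ended for Lepr without control 1, control 2 or control 3 (adjusted p 0.0653 to 0.0782), for Il1rn without control 1, control 2 or control 3 (adjusted p 0.0825 to 0.0979) and for Socs3 without cisplatin 1, cisplatin 2, control 1, control 2 or control 3 (adjusted p 0.0707 to 0.126). The acute phase factor Cebpd had 74.1, 52.5 and 18.2 CPM with cisplatin, against 4.59, 3.08 and 7.64 CPM in controls and passed in every leave-one-out fit (log2FC 3.25 ± 0.60, adjusted p = 0.00945). Tnf, made mostly by macrophages, had no count in cisplatin livers, against 2.41, 2.27 and 2.69 CPM in control livers, at least 120-fold lower.

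NF-kB feedback genes and chemokines split: 2 of 23 were higher (0 to 1 without cisplatin 1 or 2 or control 1, 2 or 3, 7 without cisplatin 3) and 4 lower (1 to 2 without cisplatin 1 or 2 or control 3). Cxcl1, a neutrophil attractant, had 277, 370 and 63.5 CPM with cisplatin, against 1.75, 34.98 and 15.3 CPM in controls (log2FC 3.77 ± 1.06, adjusted p = 0.0337), with its call lost without cisplatin 1, cisplatin 2, control 2 or control 3 (adjusted p 0.0561 to 0.117). Ccl5, a T cell attractant that T and NK cells make, had 0.0916, 0 and 0 CPM with cisplatin, against 20.8, 15.6 and 3.31 CPM in controls (log2FC -8.64 ± 1.40, adjusted p = 0.00686). Interferon-stimulated genes depended on cisplatin 3. With all libraries 1 of 24 was lower and none higher, and without it 17 were lower. The per-library medians were -1.47 and -1.45 in cisplatin 1 and 2 and 0.20 in cisplatin 3. Stat2, a subunit of the interferon-activated factor ISGF3, was the call that passed, with 58.1, 56.8 and 97.9 CPM with cisplatin, against 300.5, 593 and 460.1 CPM in controls (log2FC -2.67 ± 0.42, adjusted p = 0.0066).

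Among 27 cell death genes 9 were higher (3 to 5 without cisplatin 2 or control 1, 2 or 3) and 5 lower (2 to 3 without cisplatin 2 or control 1 or 2). Under nuclear totals 2 were higher and 10 lower, with a list median of -0.71. Tnfrsf1a, the TNF receptor 1, had 265, 245 and 68.2 CPM with cisplatin, against 28.6, 19.8 and 21.7 CPM in controls (log2FC 3.05 ± 0.54, adjusted p = 0.0089). Tnfrsf12a (Fn14), the receptor for TWEAK, had 136, 89.1 and 11.9 CPM with cisplatin, against 3.94, 4.7 and 8.68 CPM in controls (log2FC 3.78 ± 0.86, adjusted p = 0.0169). Bcl2l1, which encodes the survival factor BCL-XL, had 282, 283 and 58.6 CPM with cisplatin, against 24.5, 26.2 and 37.2 CPM in controls (log2FC 2.83 ± 0.61, adjusted p = 0.0146). Tnfrsf12a lost its call without control 1, control 2 or control 3 (adjusted p 0.054 to 0.0758) and Bcl2l1 without control 1, control 2 or control 3 (adjusted p 0.0519 to 0.0648). Casp1, the inflammatory caspase of myeloid cells, fell, at 1.12, 0.817 and 1.05 CPM with cisplatin, against 12.2, 11.7 and 5.37 CPM in controls (log2FC -3.28 ± 0.55, adjusted p = 0.00761). Of 15 immediate early genes 4 were higher (0 to 1 without cisplatin 1 or 2 or control 1, 2 or 3, and 0 under nuclear totals or limma-voom), with medians of 2.21, 1.59 and -0.81 in cisplatin 1, 2 and 3. Maff, a small MAF factor, had 51.1, 36.95 and 4.54 CPM with cisplatin, against 1.09, 0.648 and 3.31 CPM in controls (log2FC 4.22 ± 1.001, adjusted p = 0.0198) and lost its call without control 1 or control 2 (adjusted p 0.0726 to 0.0807).

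Many chaperone genes of the endoplasmic reticulum, where secreted proteins fold, were higher in cisplatin livers. Of 12 tested 8 were higher and none lower, while of 13 integrated stress response genes 3 were higher and 1 lower, a difference that was not tested. Over both sets the median was 1.42, and 0.30 with 3 of 25 higher under nuclear totals. Of the 25 genes 11 were higher (2 to 5 without cisplatin 1 or 2 or control 1, 2 or 3). Manf, a secreted factor that endoplasmic reticulum stress induces, had 468, 385 and 105 CPM with cisplatin, against 28.6, 59.8 and 34.7 CPM in controls (log2FC 2.96 ± 0.61, adjusted p = 0.013), lost without control 3 (adjusted p = 0.0594). Ddit4 (REDD1), an inhibitor of mTORC1, had 263, 128 and 28.8 CPM with cisplatin, against 5.25, 5.67 and 12.4 CPM in controls (log2FC 4.17 ± 0.83, adjusted p = 0.0116), lost without control 2 (adjusted p = 0.057). The stress hormones Gdf15 and Fgf21 did not pass. Gdf15 had 100, 27.2 and 33.2 CPM with cisplatin, against 6.12, 48.7 and 4.75 CPM in controls (log2FC 1.42 ± 0.93, adjusted p = 0.283), with control 2 inside the cisplatin range. Fgf21 had 0.55, 1.81 and 4.91 CPM with cisplatin, against 0, 4.05 and 2.48 CPM in controls (adjusted p = 0.943), and its direction changed under nuclear totals.

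Heat shock genes gave 4 of 14 higher and 2 lower (0 to 1 without cisplatin 1 or 2 or control 1, 2 or 3, 4 without cisplatin 3). The risers included the mitochondrial chaperonins Hspd1 (HSP60) at 416, 436 and 304 CPM with cisplatin, against 96.7, 59.1 and 104 CPM in controls (log2FC 2.15 ± 0.36, adjusted p = 0.00737) and its partner Hspe1 (HSP10) at 158, 163 and 168 CPM with cisplatin, against 41.1, 38.7 and 33.9 CPM in controls (log2FC 2.11 ± 0.26, adjusted p = 0.00452). Hspb8, a small heat shock protein of the autophagy pathway, had 711, 734 and 607 CPM with cisplatin, against 84.6, 94.7 and 70.4 CPM in controls (log2FC 3.04 ± 0.33, adjusted p = 0.00411). For these 3 genes every cisplatin library lay above every control, and the calls passed in every leave-one-out fit.

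Fasting and glucocorticoid responsive genes rose in part, with 11 of 26 higher (6 to 7 without control 1, 2 or 3) and none lower, a median of 1.03, and of -0.10 under nuclear totals. Igfbp1, which binds IGF1 and is repressed by insulin, had 7561, 5870 and 179 CPM with cisplatin, against 27.99, 61.9 and 102 CPM in controls (log2FC 6.15 ± 1.35, adjusted p = 0.0155), lost without control 1, control 2 or control 3 (adjusted p 0.0572 to 0.0712). Lpin1, a phosphatidate phosphatase and PGC-1 partner, had 136, 501 and 307 CPM with cisplatin, against 34.3, 22.5 and 24.8 CPM in controls (log2FC 3.53 ± 0.53, adjusted p = 0.00617). Fkbp5, a glucocorticoid receptor co-chaperone, had 158, 231 and 222 CPM with cisplatin, against 32.8, 14.2 and 12.8 CPM in controls (log2FC 3.35 ± 0.46, adjusted p = 0.00534). Of 15 growth hormone and IGF genes 4 were higher (2 without cisplatin 1 or 2 or control 1, 2 or 3) and 1 lower (5 without cisplatin 3). Igf1 did not separate the groups, at 466, 518 and 546 CPM with cisplatin and 425, 724 and 249 CPM in controls (log2FC 0.13 ± 0.43, adjusted p = 0.84, and -0.98 under nuclear totals). Mup20, a male-biased major urinary protein in a family of near-identical copies, had 8680, 5658 and 6824 CPM with cisplatin, against 1538, 1431 and 957 CPM in controls (log2FC 2.43 ± 0.44, adjusted p = 0.00903). Igfbp4, an IGF-binding protein, had 1330, 1689 and 1908 CPM with cisplatin, against 445, 384 and 409 CPM in controls (log2FC 1.99 ± 0.34, adjusted p = 0.00813). Stat5a, which relays growth hormone, fell, at 6.94, 6.6 and 7.45 CPM with cisplatin, against 19.03, 34.2 and 26.9 CPM in controls (log2FC -1.93 ± 0.32, adjusted p = 0.00717).

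**Figure D3:**
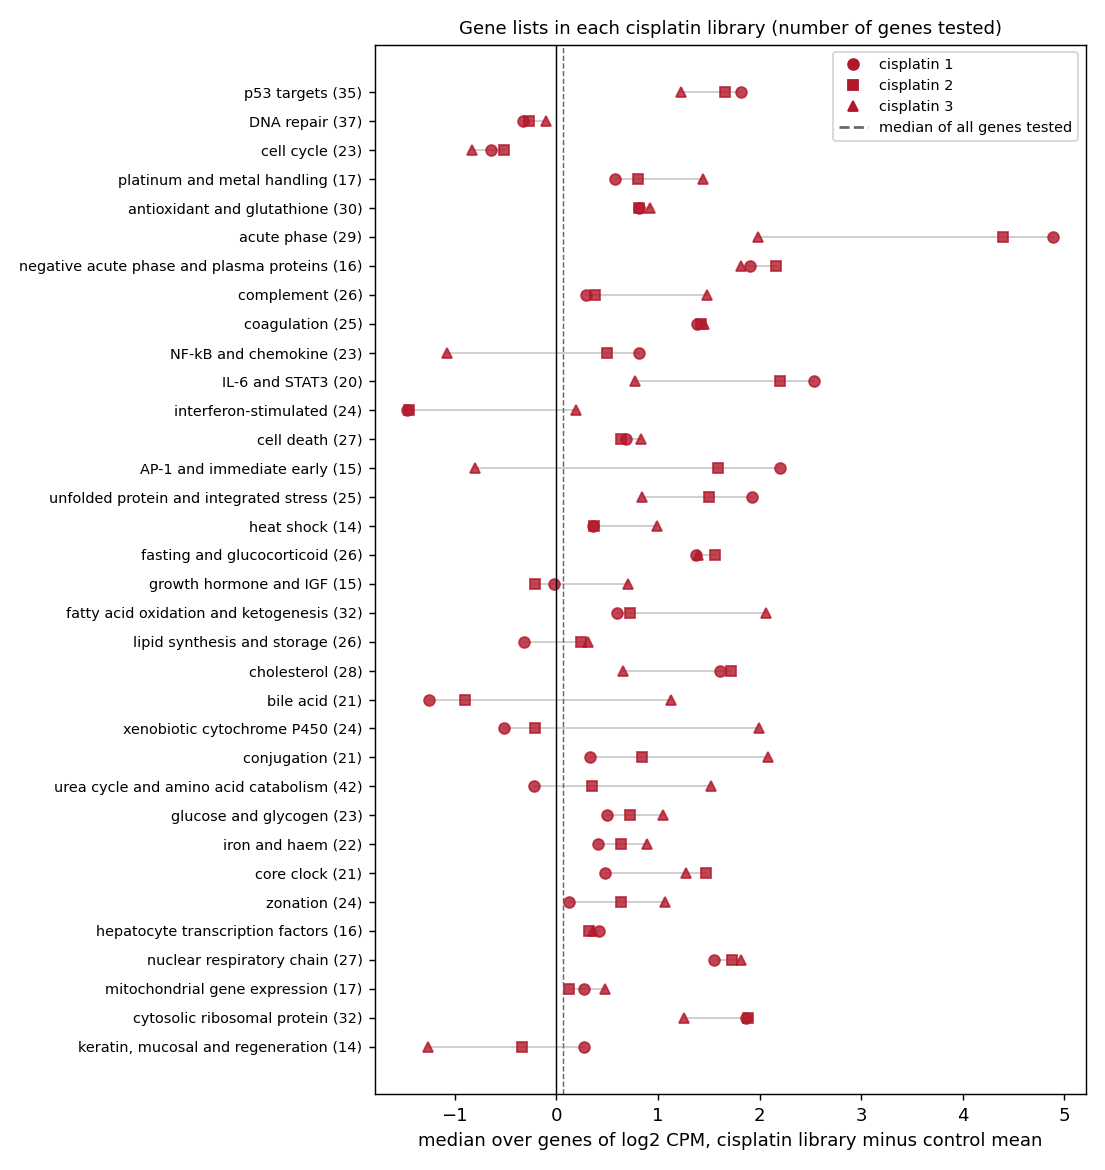
Median log2 difference of each cisplatin library from the mean of the controls for 34 gene lists, with the number of genes tested in brackets and a dashed line at the median of all genes tested (0.07). Acute phase genes had the highest medians in cisplatin 1 and 2 (4.89 and 4.40) but 1.99 in cisplatin 3, and interferon, bile acid and P450 lists had medians below 0 in cisplatin 1 and 2 and above 0 in cisplatin 3. Scaling by nuclear totals, which moves the median of all genes to -1.09, takes 18 of the 34 list medians from above 0 to below 0.

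Lipid genes had calls in both directions. For synthesis and storage genes these were near the background shares of 18.1% higher and 12.1% lower. For oxidation genes the share lower was below that background. Of 32 fatty acid oxidation and ketogenesis genes 13 were higher (5 to 7 without control 1, 2 or 3) and 2 lower (1 without control 2, 7 without cisplatin 3), with medians of 0.60, 0.73 and 2.06 in cisplatin 1, 2 and 3. Cyp4a14, a PPARα target that hydroxylates fatty acids at their end, had 47.9, 203 and 1609 CPM with cisplatin, against 6.56, 5.99 and 3.72 CPM in controls (log2FC 6.83 ± 1.37, adjusted p = 0.0119), lost without control 2 or control 3 (adjusted p 0.0589 to 0.0602). It was highest in cisplatin 3, in contrast to the acute phase genes. Cyp4a12a, the male-biased arachidonate hydroxylase, fell, at 6.09, 6.67 and 26.9 CPM with cisplatin, against 229, 419 and 142 CPM in controls (log2FC -4.32 ± 0.77, adjusted p = 0.00876). Of 26 lipid synthesis and storage genes 6 were higher (2 to 3 without control 1, 2 or 3) and 3 lower (0 without cisplatin 1 or 2 or control 2 or 3, 10 without cisplatin 3). Fasn, fatty acid synthase, had 68.7, 104 and 150.2 CPM with cisplatin, against 377, 369 and 220.4 CPM in controls (log2FC -1.58 ± 0.41, adjusted p = 0.0258). Mlxipl (ChREBP), the sugar-sensing activator of lipogenesis, had 91.1, 108 and 345 CPM with cisplatin, against 505, 1437 and 1105 CPM in controls (log2FC -2.48 ± 0.66, adjusted p = 0.0287). Calls ended for Fasn without cisplatin 1, cisplatin 2, control 1, control 2 or control 3 (adjusted p 0.0508 to 0.0883) and for Mlxipl without cisplatin 1, cisplatin 2, control 2 or control 3 (adjusted p 0.0689 to 0.101). Plin2, the coat protein of lipid droplets, rose, at 809.8, 645 and 396 CPM with cisplatin, against 72.2, 86.8 and 72.7 CPM in controls (log2FC 2.998 ± 0.39, adjusted p = 0.00465).

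Cholesterol synthesis genes gave 9 of 20 higher and none lower. Cyp51, lanosterol demethylase, had 348, 452 and 152 CPM with cisplatin, against 26.5, 29.3 and 15.1 CPM in controls (log2FC 3.75 ± 0.52, adjusted p = 0.00535). With the efflux genes included 11 of 28 were higher (6 to 7 without cisplatin 1 or 2 or control 3), and the median was 1.20, and 0.03 under nuclear totals. Of 21 bile acid genes 2 were higher (0 to 1 without cisplatin 1 or 2 or control 1, 2 or 3) and none lower (1 to 10 without cisplatin 3 or control 1). Baat, which couples bile acids to taurine, had 479.9, 480.1 and 938 CPM with cisplatin, against 152, 183 and 217 CPM in controls (log2FC 1.78 ± 0.40, adjusted p = 0.0164), lost without control 1, control 2 or control 3 (adjusted p 0.0558 to 0.0671). Cyp7a1, which sets the pace of bile acid synthesis, had 1.08, 1.39 and 162 CPM with cisplatin, against 24.9, 23.97 and 1.45 CPM in controls. It was low in cisplatin 1 and 2 and high in cisplatin 3, and the difference did not pass (log2FC 1.71 ± 1.79, adjusted p = 0.498). Without cisplatin 3 the log2FC was -3.82 (adjusted p = 0.026).

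Drug-metabolising enzymes also depended on the third cisplatin library. Of 24 genes of the cytochrome P450 list 6 were higher (1 to 3 without cisplatin 2 or control 1, 2 or 3, and 1 under nuclear totals) and none lower (8 without cisplatin 3), and the per-library medians were -0.52, -0.21 and 1.99. Cyp2e1, which oxidises ethanol and paracetamol, had 943, 1558 and 8160 CPM with cisplatin, against 731, 699.9 and 619 CPM in controls and did not pass (log2FC 2.38 ± 0.82, adjusted p = 0.0622). Without cisplatin 1 it passed (adjusted p = 0.0368). Cyp3a11, the main drug-oxidising P450 of mouse liver, had 266, 158 and 2626 CPM with cisplatin, against 232, 506 and 198 CPM in controls (log2FC 1.70 ± 1.04, adjusted p = 0.248), and its log2FC was -0.61 without cisplatin 3. Por, the reductase that feeds electrons to all microsomal P450s, rose in every cisplatin library, at 566, 1056 and 1265 CPM with cisplatin, against 39.1, 47.3 and 15.9 CPM in controls (log2FC 4.82 ± 0.59, adjusted p = 0.00452). Cyp3a13 had 221, 308 and 558 CPM with cisplatin, against 34.8, 48.4 and 86.1 CPM in controls (log2FC 2.68 ± 0.51, adjusted p = 0.0104), lost without control 2 (adjusted p = 0.0538). In conjugation 9 of 21 were higher (4 to 5 without cisplatin 2 or control 2 or 3) and 1 lower (4 without cisplatin 3). The phenol sulfotransferase Sult1a1 had 820.4, 1211 and 981 CPM with cisplatin, against 126, 116 and 162 CPM in controls (log2FC 2.90 ± 0.36, adjusted p = 0.00452). Sult5a1 fell, at 5.22, 2.83 and 9.92 CPM with cisplatin, against 49.9, 82.6 and 125 CPM in controls (log2FC -3.84 ± 0.57, adjusted p = 0.00599).

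Enzymes of amino acid and glucose metabolism rose in part. Mat1a, which makes S-adenosylmethionine in adult liver, had 12939, 14697 and 13663 CPM with cisplatin, against 636, 618 and 690 CPM in controls, a 21.2-fold difference with little spread in either group (log2FC 4.41 ± 0.45, adjusted p = 0.00411). Arg1, arginase, had 5855, 5988 and 2605 CPM with cisplatin, against 388, 491 and 682 CPM in controls (log2FC 3.21 ± 0.52, adjusted p = 0.00686). Tdo2, tryptophan dioxygenase, had 2380, 2684 and 2066 CPM with cisplatin, against 220, 224 and 356 CPM in controls (log2FC 3.16 ± 0.40, adjusted p = 0.00464). Cps1, the first enzyme of the urea cycle, had 1158, 1644 and 3932 CPM with cisplatin, against 311, 569 and 591 CPM in controls (log2FC 2.19 ± 0.57, adjusted p = 0.0266), lost without cisplatin 2, control 1, control 2 or control 3 (adjusted p 0.0531 to 0.0901). Of the 42 urea cycle and amino acid genes 14 were higher (8 to 9 without control 1 or 3) and 1 lower (7 without cisplatin 3). The median was 0.71, and -0.34 under nuclear totals. Of 23 glucose and glycogen genes 8 were higher (5 without control 1, 2 or 3) and 2 lower (0 to 1 without cisplatin 1 or 2 or control 1 or 2, 6 without cisplatin 3). Ldha, lactate dehydrogenase A, had 2383, 1900 and 912 CPM with cisplatin, against 149, 109.8 and 125 CPM in controls (log2FC 3.76 ± 0.48, adjusted p = 0.00465), and the gluconeogenic enzymes Fbp1 and Pcx had 2978, 1780 and 921 CPM with cisplatin and 180, 146 and 168 CPM in controls (log2FC 3.52 ± 0.52, adjusted p = 0.00598) and 978, 968 and 957 CPM with cisplatin and 87.3, 91.7 and 129.9 CPM in controls (3.23 ± 0.35, adjusted p = 0.00411).

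Of 22 iron and haem genes 5 were higher (0 to 3 without cisplatin 1 or 2 or control 1, 2 or 3) and 1 lower. Of 14 genes of keratins, mucosal repair and regeneration 3 were higher (0 to 1 without cisplatin 1 or 2 or control 1, 2 or 3, 5 without cisplatin 3) and 3 lower. Of 21 circadian clock genes 6 were higher (3 without cisplatin 2 or control 1 or 3) and 1 lower. Nr1d2 (REV-ERBβ), a repressor, had 79.5, 78.8 and 80.5 CPM with cisplatin, against 11.8, 2.43 and 4.96 CPM in controls (log2FC 3.65 ± 0.55, adjusted p = 0.00614). Per1, a repressor that glucocorticoids also induce, had 81.9, 72.5 and 47.8 CPM with cisplatin, against 13.6, 15.1 and 18.6 CPM in controls (log2FC 2.10 ± 0.31, adjusted p = 0.00588). Npas2, a partner of BMAL1, fell, at 0.71, 0.243 and 0 CPM with cisplatin, against 6.999, 11.01 and 17.1 CPM in controls (log2FC -5.20 ± 1.31, adjusted p = 0.0243), lost without cisplatin 2, control 2 or control 3 (adjusted p 0.0692 to 0.0834). Because no clock time is stated, the hour of collection and the treatment cannot be told apart for these genes. Among the 17 clock genes with a promoter in the table, 5 held the E-box CACGTG (7.15% of all promoters) and 1 the D-box, TTATGTAA or TTACGTAA (1.06%). Of 24 zonation genes 5 were higher (2 to 3 without cisplatin 2 or control 1, 2 or 3) and none lower (6 without cisplatin 3), 2 of 12 pericentral and 3 of 12 periportal. Among 16 hepatocyte transcription factors 3 were higher (6 without cisplatin 3) and 2 lower (1 without cisplatin 2 or control 2 or 3, 4 without cisplatin 3). Foxa3 had 186, 128 and 72.8 CPM with cisplatin, against 18.4, 22.7 and 28.1 CPM in controls (log2FC 2.48 ± 0.41, adjusted p = 0.0072). Bcl6, a repressor that competes with STAT5 for its sites, had 12.5, 7.09 and 8.53 CPM with cisplatin, against 35.9, 50.7 and 146 CPM in controls (log2FC -3.05 ± 0.58, adjusted p = 0.0101).

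With all libraries, most nuclear genes of the respiratory chain and of the cytosolic ribosome rose. Of 27 respiratory chain genes 22 were higher (13 without control 2 or 3) and none lower, with per-library medians of 1.55, 1.73 and 1.82, and the median of 1.82 was 0.63 with 5 higher under nuclear totals. Ndufa4, a subunit of cytochrome c oxidase, had 477, 462 and 464 CPM with cisplatin, against 75.02, 36.9 and 61.97 CPM in controls (log2FC 3.01 ± 0.37, adjusted p = 0.00452). Cox4i1, of the same complex, had 882, 904 and 858 CPM with cisplatin, against 146, 136 and 122 CPM in controls (log2FC 2.71 ± 0.31, adjusted p = 0.00452). Over the same libraries the genes encoded in mitochondrial DNA averaged 3.74% of counts in cisplatin livers and 71.2% in control livers. Of 17 genes that maintain and transcribe mitochondrial DNA, 3 were higher and 1 lower. Tfam, which packages mitochondrial DNA, had 41.8, 35.4 and 47.1 CPM with cisplatin, against 16.2, 14.6 and 11.98 CPM in controls (log2FC 1.54 ± 0.26, adjusted p = 0.00794), and the coactivator Ppargc1a had 46.1, 46.5 and 11.7 CPM with cisplatin, against 3.28, 4.37 and 5.58 CPM in controls (log2FC 2.98 ± 0.58, adjusted p = 0.0108), lost without control 2 (adjusted p = 0.0509). Polrmt, the mitochondrial RNA polymerase, fell, at 15.4, 15.7 and 18.2 CPM with cisplatin, against 29.5, 57.3 and 51.9 CPM in controls (log2FC -1.49 ± 0.31, adjusted p = 0.0135), lost without cisplatin 2, control 2 or control 3 (adjusted p 0.0504 to 0.0559).

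Of 32 ribosomal protein genes 30 were higher (11 to 17 without cisplatin 1 or 2 or control 2 or 3) and none lower, 15 of 17 for the large and 15 of 15 for the small subunit. The median was 1.67, and 0.44 with 5 higher under nuclear totals. Rpl5, which binds MDM2 when ribosome assembly stalls, had 1064, 992 and 1064 CPM with cisplatin, against 167, 128 and 142 CPM in controls (log2FC 2.83 ± 0.33, adjusted p = 0.00452); 24% of its exon length overlaps Dipk1a. Rps3 had 937, 913 and 922 CPM with cisplatin, against 168, 148 and 142 CPM in controls (log2FC 2.60 ± 0.31, adjusted p = 0.00452). Rps14 had 1133, 1012 and 776 CPM with cisplatin, against 199.9, 133 and 142 CPM in controls (log2FC 2.62 ± 0.36, adjusted p = 0.00534). Ribosomal proteins have many processed copies in the genome, so reads can be shared with them.

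Among markers of cells other than hepatocytes, those of stellate and smooth muscle cells were mostly lower. Of 16 stellate and smooth muscle markers 13 were lower and none higher (median -3.63). Acta2, smooth muscle actin, had 0.687, 0.287 and 0.0691 CPM with cisplatin, against 115, 4.86 and 15.3 CPM in controls (log2FC -7.02 ± 1.44, adjusted p = 0.0126). Myh11, smooth muscle myosin, had 0.0916, 0.331 and 0.276 CPM with cisplatin, against 54.9, 3.4 and 8.26 CPM in controls (log2FC -6.53 ± 1.22, adjusted p = 0.00968). The collagens Col3a1 and Col6a1 had 4.77, 1.06 and 3.11 CPM with cisplatin and 184, 86.2 and 15.9 CPM in controls (log2FC -4.998 ± 0.98, adjusted p = 0.011) and 1.01, 1.17 and 1.04 CPM with cisplatin and 46.4, 23.2 and 7.44 CPM in controls (-4.57 ± 0.68, adjusted p = 0.00599). Vim, the intermediate filament of mesenchymal and immune cells, had 6.03, 3.25 and 6.56 CPM with cisplatin, against 202, 36.4 and 39.04 CPM in controls (log2FC -4.13 ± 0.78, adjusted p = 0.00993). Cholangiocyte markers gave 2 of 10 higher and 1 lower, among them the tetraspan protein gene Tm4sf4 at 162, 168 and 103 CPM with cisplatin, against 8.97, 16.5 and 21.3 CPM in controls (log2FC 3.21 ± 0.42, adjusted p = 0.00466). Of 17 endothelial markers 2 were lower (0 to 1 without cisplatin 1 or 2 or control 1, 2 or 3, 6 without cisplatin 3). Stab1, a scavenger receptor of sinusoidal endothelium, had 16.4, 22.3 and 21.8 CPM with cisplatin, against 43.1, 44.7 and 28.9 CPM in controls (log2FC -0.95 ± 0.28, adjusted p = 0.042), lost without cisplatin 1, cisplatin 2, control 1, control 2 or control 3 (adjusted p 0.0568 to 0.133). Its relative Stab2 had 4.42, 5.9 and 14.9 CPM with cisplatin, against 16.6, 27.9 and 34.9 CPM in controls (log2FC -1.65 ± 0.53, adjusted p = 0.0512) and passed without cisplatin 3 (adjusted p = 0.00395).

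Macrophage markers fell in part, 7 of 16 (1 to 2 without cisplatin 1 or 2 or control 1, 2 or 3, 11 without cisplatin 3). Vsig4, a complement receptor of Kupffer cells, had 1.67, 1.7 and 6.63 CPM with cisplatin, against 42.6, 29.5 and 82.8 CPM in controls (log2FC -3.95 ± 0.71, adjusted p = 0.00895). Csf1r, the receptor for their growth factor, had 5.48, 6.32 and 15.2 CPM with cisplatin, against 50.3, 25.4 and 59.3 CPM in controls (log2FC -2.32 ± 0.51, adjusted p = 0.0157), lost without cisplatin 2, control 1 or control 3 (adjusted p 0.0508 to 0.0669). Clec4f, a lectin particular to Kupffer cells in mouse, did not pass with all libraries, at 20.03, 16.4 and 101 CPM with cisplatin, against 48.8, 95.9 and 61.4 CPM in controls (log2FC -0.59 ± 0.70, adjusted p = 0.552), and was -1.97 without cisplatin 3 (adjusted p = 0.00508). Of 12 monocyte markers 4 were lower (1 to 2 without cisplatin 1 or 2 or control 1 or 3) and 1 higher. Ccr2, a chemokine receptor of monocytes, had 0.962, 0.795 and 0.535 CPM with cisplatin, against 10.9, 3.08 and 8.88 CPM in controls (log2FC -3.31 ± 0.69, adjusted p = 0.0132), lost without control 3 (adjusted p = 0.0509). Of the 14 neutrophil markers 6 were tested. Lcn2, which hepatocytes also make, was higher and Csf3r, the G-CSF receptor, lower, at 2.15, 1.41 and 1.24 CPM with cisplatin, against 17.5, 11.2 and 12.4 CPM in controls (log2FC -3.09 ± 0.46, adjusted p = 0.00598). Without Lcn2 the neutrophil markers summed to 63.7, 85.5 and 4.99 CPM in cisplatin livers and 33.2, 20.1 and 28.7 CPM in control livers, which overlap. Tlr5, the receptor of CBLB502, overlapped between the groups at 0.435, 0.442 and 2.14 CPM with cisplatin and 0, 3.72 and 1.03 CPM in controls (adjusted p = 0.734).

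Most tested lymphoid, antigen-presenting and red cell markers were lower in cisplatin livers. Of 10 T and NK markers 8 were lower (5 without control 1 or 2), of 11 B and plasma cell markers 10, of 9 dendritic markers 6 (1 to 3 without cisplatin 2 or control 1, 2 or 3) and of 6 erythroid markers 5, and no member of these lists was higher. Cd8a had no count in cisplatin livers and 16.8, 11.2 and 8.26 CPM in control livers, at least 592-fold lower. Cd4 had 0, 0 and 0.138 CPM with cisplatin, against 8.09, 4.7 and 2.48 CPM in controls (log2FC -6.58 ± 1.54, adjusted p = 0.019), lost without control 1 or control 2 (adjusted p 0.0539 to 0.062). The kappa light chain gene Igkc had 0.367, 0.0663 and 1.002 CPM with cisplatin, against 138, 135 and 126 CPM in controls (log2FC -8.08 ± 0.91, adjusted p = 0.00435). H2-Aa, of MHC class II, had 0.756, 0.618 and 8.34 CPM with cisplatin, against 112, 74.7 and 42.8 CPM in controls (log2FC -4.55 ± 1.09, adjusted p = 0.0204), lost without control 1, control 2 or control 3 (adjusted p 0.0542 to 0.0646). The beta globins Hbb-bs and Hbb-bt had 0.435, 0.972 and 0.345 CPM with cisplatin and 394, 80.3 and 336 CPM in controls (log2FC -8.85 ± 0.88, adjusted p = 0.00411) and 0.16, 0.353 and 0.0518 CPM with cisplatin and 154, 18.8 and 162 CPM in controls (-9.21 ± 1.15, adjusted p = 0.00452). Itga2b, the platelet integrin, had 2.11, 2.16 and 2.49 CPM with cisplatin, against 15.8, 15.7 and 18.8 CPM in controls (log2FC -2.89 ± 0.36, adjusted p = 0.00452). No count fell on Cd8a, Cd8b1, Trac, Klrb1c, Eomes or Ms4a1 in any cisplatin library, nor on Cd3d, Prf1 or Eomes in any control.

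Summed over their lists, the B and plasma cell markers held 0.596, 0.972 and 4.20 CPM in cisplatin livers and 272, 256 and 207 CPM in control livers. The T and NK markers held 0.412, 0.221 and 3.16 CPM in cisplatin livers, against 75.9, 62.5 and 41.7 CPM in control livers. Erythroid markers held 12.97, 17.1 and 22.4 CPM in cisplatin livers, against 1312, 295 and 1214 CPM in control livers. Dendritic and antigen-presentation markers held 9.26, 8.57 and 58.4 CPM in cisplatin livers, against 458, 266 and 264 CPM in control livers. In each of these lists cisplatin 3 was the highest of the cisplatin libraries and still below every control. Kidney tubule transcripts were present at 44.1, 74.7 and 0.138 CPM in cisplatin livers and 21.7, 22.2 and 14.9 CPM in control livers, with none of 9 tested passing. Pancreas, gut and gallbladder transcripts held 17.5, 29.3 and 79.6 CPM in cisplatin livers, against 80.3, 107 and 121 CPM in control livers. The part of cell make-up, blood content and neighbouring tissue in the results for other genes was not tested.

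**Figure D4:**
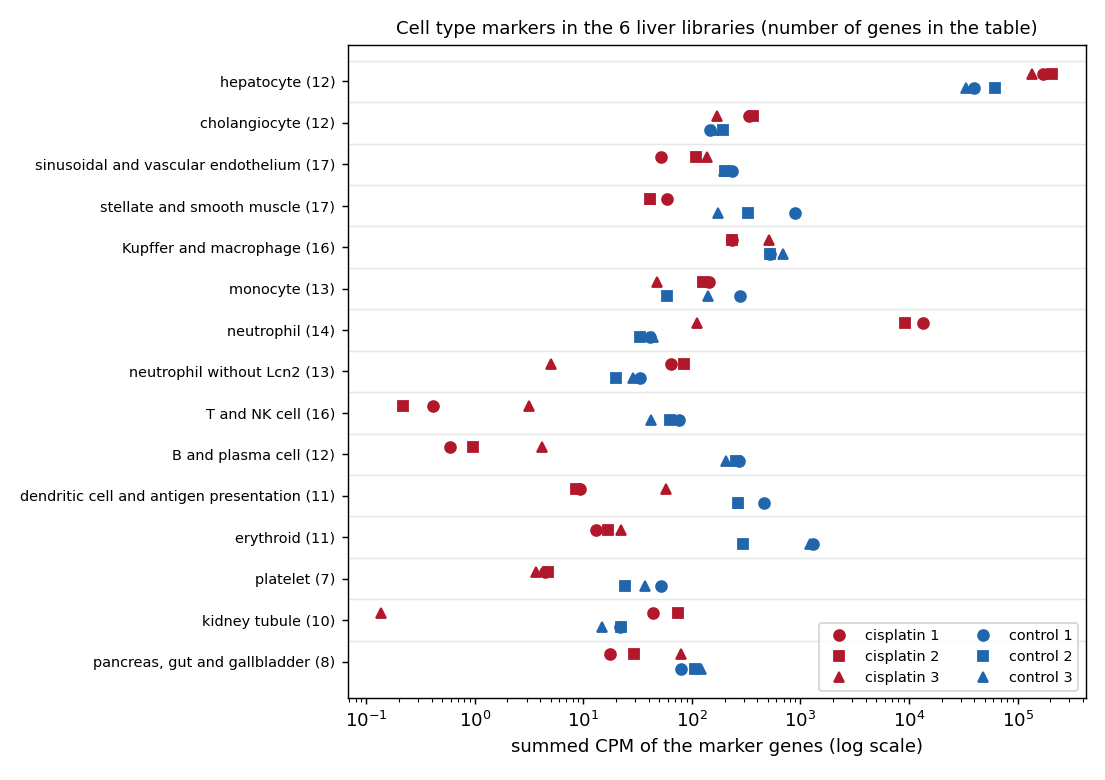
Summed CPM (log scale) of marker genes of each cell type in the cisplatin libraries (red, upper row of each band) and control libraries (blue, lower row), with the number of genes in brackets. T and NK, B and plasma, dendritic, erythroid, platelet and stellate markers were lower in every cisplatin library than in any control; the high neutrophil sum in cisplatin 1 and 2 is Lcn2, and without Lcn2 the groups overlap.

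The liver of mice given CBLB502 alone at 0.2 mg/kg, labelled 72 h, gave 3 further libraries set against the same controls. These had a mitochondrial share of 6.73 to 7.10% and 48.6 to 52.5 M nuclear counts, and so resemble the cisplatin libraries in depth. Since both comparisons share the control libraries, only their values are set side by side, with medians of log2 CPM relative to the controls over the same genes. p53 targets had a median of 1.60 in cisplatin livers and -0.05 in CBLB502 livers, and acute phase genes 3.81 in cisplatin livers and 0.45 in CBLB502 livers. Ribosomal protein genes had 1.66 in cisplatin livers and 0.51 in CBLB502 livers. Respiratory chain genes had 1.86 in cisplatin livers and 1.43 in CBLB502 livers, and hepatocyte markers 1.68 in cisplatin livers and 1.75 in CBLB502 livers. B and plasma cell markers had -6.47 in cisplatin livers and -2.81 in CBLB502 livers, T and NK markers -5.45 in cisplatin livers and -2.94 in CBLB502 livers, and stellate and smooth muscle markers -3.36 in cisplatin livers and -0.86 in CBLB502 livers. Some lists that rose with cisplatin had higher medians in CBLB502 livers. Antioxidant and glutathione genes had 0.93 in cisplatin livers and 1.26 in CBLB502 livers, and fatty acid oxidation genes 1.15 and 1.99. In the same order conjugation genes had 1.135 and 1.56, amino acid genes 0.64 and 1.08, and clock genes 1.02 and 1.46. Cholesterol genes were close, at 1.36 and 1.32, and platelet markers had -2.88 and -4.05. Over all genes tested the medians were 0.22 in cisplatin livers and 0.28 in CBLB502 livers. The differences between these arms were not tested.

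Fold changes also varied with gene length. Across 15163 genes Spearman's rho between length and log2 fold change was -0.10, where genes are not independent replicates. In 20 bins of length the median log2 fold change was highest, at 0.53, in the fourth bin (median length 1603 bases) and lowest, at -0.36, in the longest (14686 bases). With fold changes centred within length bins, 28 of 32 ribosomal protein genes and 23 of 27 respiratory chain genes were higher. The part of gene length in these results was not tested.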

How the data were processed

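The authors deposited a table of 33272 mouse genes with a raw read count and an FPKM value (fragments per kilobase and depth) for each gene and library, per the file headers. Tools listed in the submitters' processing notes are FastQC and cutadapt 1.9. The aligner, counting program, strand setting and genome build are not given in the sources used here, but 99.65% of the gene IDs are in GENCODE vM21 (GRCm38), and of those 99.7% share a start or end with it. The counts of 6 libraries were tested, counts of 6 more liver libraries entered an alternative fit, and 30 columns of per-sample values were not used. The deposited FPKM served to derive gene lengths, which lay within 10% of the annotated exon union for 96.6% of genes.

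The 37 mitochondrial genes and their 7 chromosome 1 copies were left out before scaling. Genes with too few counts were dropped with edgeR's filterByExpr, libraries were scaled by TMM, and cisplatin was tested against control with edgeR 4.0.16's quasi-likelihood test in R 4.3.3, with Benjamini-Hochberg adjustment over 15164 genes at 0.05. The test was checked on simulated counts. DESeq2 1.42.0 and limma 3.58.1 gave alternatives. A fold against a group at 0 uses a floor of 3 counts over that group. Members and gene lists were chosen with earlier results of these data known. Named genes are the 8 called genes with the largest rise and fall (at least 5 FPKM in the higher group, groups not overlapping, no predicted or repeated symbols), up to 4 called members per list and direction, and a set of fixed genes. From these the text describes a part, together with the genes of the promoter search, and some genes are not reported here.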

Additional observations from a re-analysis of the deposited data

How the results depend on the processing

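Against 2747 genes higher and 1835 lower, the counts were 524 higher and 4611 lower when nuclear totals alone scaled the libraries, 912 and 709 when the test was against a log2 fold change of 1, and 4488 and 3215 in a fit of all 12 liver libraries. DESeq2 called 3014 lower, and thinning all libraries to the smallest nuclear total left 1762 higher. Leaving out each library in turn gave 1291 to 3091 higher and 835 to 2776 lower, the highest of both without cisplatin 3. Median-of-ratios scaling, limma-voom, keeping the mitochondrial genes, no filter, a filter of 1 CPM, length-bin centring and, chosen after seeing the data, leaving out 4 genes of ribosomal or mitochondrial-like sequence kept each count within 1.5 times.

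The groups share the numbers 1 to 3, but same-numbered libraries deviated together in no regular way (correlations of 0.12, -0.10 and 0.08). Deviations from a mean of 3 libraries depend on each other, so these values cannot decide whether the numbers mark pairs. With the replicate block the counts were 2044 higher and 1271 lower.

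Of the genes named, Bax (-0.08), Mdm2 (-0.40), Fgf21 (-0.80) and Igf1 (-0.98) changed sign under nuclear totals. Igf1 also did under median-of-ratios scaling and DESeq2 (-0.02 in both) and after thinning (-0.21). Hmox1 did without a filter (0.13) and with all 12 libraries (0.02). Cyp7a1 turned under limma-voom (-0.56), length-bin centring (-0.60) and the replicate block (-2.6), and Tlr5 under length-bin centring (0.25) and the block (0.16). Over the leave-one-out fits the Hmox1 log2 fold change ran from -0.93 to 0.38, and others from -0.94 to 0.98 for Fgf21, -0.15 to 0.60 for Igf1, -3.82 to 2.22 for Cyp7a1, -0.61 to 2.27 for Cyp3a11 and -1.21 to 0.97 for Tlr5. None of these 8 genes except Bax passed the test with all libraries. Of 134 genes followed, 16 lost their call with the sign kept under nuclear totals, 14 under limma-voom, 17 against a log2 fold change of 1 and 13 under the block. Bax changed sign under nuclear totals and lost its call there as well. Without cisplatin 1, and likewise without cisplatin 2, 130 of the 134 genes had a value. The cause of these changes was not tested. Control depth, 2.82 to 4.65 M nuclear counts, limits what can be seen of genes low in control livers.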
